A study of Rattus norvegicus with 10 samples.

Results

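Aquaporins are the membrane channels through which water, and for some members glycerol, crosses cells. They were followed in the kidneys of rat fetuses taken on day 22 of gestation, in 10 kidney samples with 1 array each. The members were all probe sets of the array whose single gene symbol was Aqp followed by a digit, which gave 12 probe sets for 9 genes (Aqp1 to Aqp9) of 15923 probe sets in all. The normal group (5 samples, replicates 1 to 5) came from mothers kept on a regular diet without an implant. The insulin-implant group (5 samples, replicates 6 to 10) came from hyperinsulinemic Wistar mothers of 200 to 280 g on a normal diet, and the series describes its fetuses as growth restricted. These mothers received a 2 mm segment of sustained-release insulin under the skin once a week ahead of mating and once a week after it. The labels give no strain for the normal mothers, and no litter, mother, sex or batch for any sample. P-values can therefore speak only for the variation among these 10 arrays, part of which may be technical, and they would come out too small if some fetuses were siblings. The family was selected on the higher Aqp2 and Aqp3 signals of the insulin-implant group, already known from the same arrays, so the differences of single members are given as a description.

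Aqp1 is the constitutive water channel of the proximal tubule and of the thin descending limb, and it is also carried by capillary endothelium and red cells. Aqp2 is the regulated channel of collecting duct principal cells: vasopressin binds its receptor Avpr2, cAMP rises, protein kinase A is activated, and vesicles that hold Aqp2 fuse with the apical membrane. Vasopressin also raises Aqp2 transcription through cAMP. Water then leaves the cell on the basolateral side through Aqp3, which also passes glycerol, and Aqp4. Aqp7 is a glycerol and water channel of the late proximal tubule, and Aqp6 lies in vesicles of intercalated cells.

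The upstream sequences of Aqp1, Aqp2 and Aqp3 are shown because these genes belong to different nephron segments and because Aqp2 and Aqp3, but not Aqp1, had higher mean signals in the insulin-implant group. Each run holds the 250 bases before the annotated start, 5′ to 3′ on the gene's strand, from RefSeq in the GRCr8 build; the intervals are chr4:85812534-85812783 (plus strand) for Aqp1, chr7:132590036-132590285 (plus strand) for Aqp2 and chr5:61040684-61040933 (minus strand) for Aqp3. Capitals mark matches, on both strands, to the core TGACG of the cAMP response element, the GATA motif AGATAA, the E-box CACGTG and the TATA motif TATAA.
Aqp1 promoter: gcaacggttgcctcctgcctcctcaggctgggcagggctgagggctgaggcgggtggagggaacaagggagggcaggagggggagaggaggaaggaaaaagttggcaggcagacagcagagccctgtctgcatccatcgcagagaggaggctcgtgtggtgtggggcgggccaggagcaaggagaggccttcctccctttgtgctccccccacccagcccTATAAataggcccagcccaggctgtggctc
Aqp2 promoter: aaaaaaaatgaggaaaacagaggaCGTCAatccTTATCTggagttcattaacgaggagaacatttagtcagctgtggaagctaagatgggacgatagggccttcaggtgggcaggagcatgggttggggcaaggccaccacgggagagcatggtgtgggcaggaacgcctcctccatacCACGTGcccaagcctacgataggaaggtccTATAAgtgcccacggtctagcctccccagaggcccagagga
Aqp3 promoter: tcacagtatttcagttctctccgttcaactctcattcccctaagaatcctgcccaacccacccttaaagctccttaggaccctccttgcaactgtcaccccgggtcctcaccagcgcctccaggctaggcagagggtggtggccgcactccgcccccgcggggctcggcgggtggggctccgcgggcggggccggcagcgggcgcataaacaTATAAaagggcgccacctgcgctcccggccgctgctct
The Aqp2 run held 1 match to each of the 4 motifs and none overlapped: the cAMP response core at -226 to -222 and the GATA motif at -217 to -212, both read on the minus strand, the E-box at -71 to -66 and TATAA at -41 to -37. The Aqp3 run held TATAA alone, at -38 to -34, and the Aqp1 run held TATAA alone, at -30 to -26. The E-box was not particular to Aqp2 in the family. Of the runs not printed, it was also found in Aqp5 (-223 to -218), Aqp6 (-95 to -90) and Aqp8 (-161 to -156 and -98 to -93). TATAA was found in Aqp4 (-77 to -73). Among 33469 rat upstream sequences of the same length, 18.2% held the cAMP response core, 10.3% the GATA motif, 5.59% the E-box and 23.97% TATAA. A match describes these letters and is not a measured binding site. On chromosome 7, Aqp2, Aqp5 and Aqp6 are consecutive protein-coding genes, and on chromosome 5 Aqp7 and Aqp3 are next to each other. The upstream table matched 8 of the 9 genes, and Aqp7 was the one without an entry.

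Signals are linear MAS5 intensities, in arbitrary units, as deposited by the authors, and every array had the same mean of 250 once 2% of the values were trimmed at each end. Median signals ran from 130 to 137 per array. The brightness of different probe sets depends on their sequences, so no member's level is set against another's, and only differences between arrays are compared. Log2 differences are insulin-implant minus normal, on the log2(signal + 16) scale, with their standard errors; values after ± on signals are SDs over 5 arrays. Testing was limited to probe sets at or above the 40th percentile of their array (79.2 to 87.6) on at least 5 of the 10 arrays. Among the aquaporins, 6 probe sets of 5 genes (2 of Aqp1, and 1 each of Aqp2, Aqp3, Aqp4 and Aqp7) reached it on all 10 arrays, and the other 6 reached it on 0 arrays. Replicate 6 of the insulin-implant group stood somewhat apart, with a median correlation with the other arrays of 0.981, against 0.985 to 0.988 for the rest. Xist, the transcript of the inactive X chromosome, ran from 0.8 to 2 in the normal group and from 42.4 to 70.5 in the insulin-implant group. It reached the 40th percentile on 0 arrays and was not tested. The labels give no fetal sex, and sex may differ fully between the groups. Xist level, fetal sex and treatment therefore cannot be told apart in any comparison here.

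Aqp2, the vasopressin-regulated channel, had higher signals in the insulin-implant group. Its signals in the normal group were 1015, 1553, 1100, 1523 and 1303 in replicates 1 to 5. In the insulin-implant group they were 1742, 1574, 1597, 1957 and 1911 in replicates 6 to 10. All 5 insulin-implant arrays lay above all 5 normal arrays, although normal replicate 2 and insulin-implant replicate 7, at 1553 and 1574, nearly met. The means were 1299 ± 242 and 1756 ± 175 (n = 5 each), a log2 difference of 0.45 ± 0.11, or 1.36-fold. In whole kidney RNA, more cells of a type and more RNA per cell cannot be told apart. The normal arrays were the more scattered, with a coefficient of variation of 18.7% against 9.97%; replicates 1 and 3 were low and replicates 2 and 4 were high. Leaving out any 1 array kept the log2 difference between 0.36 (without replicate 1) and 0.51 (without replicate 2).

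Aqp3, the basolateral exit channel of the same cells, also had a higher mean, by a smaller amount. Its signals were 703, 681, 690, 586 and 656 in normal replicates 1 to 5. In insulin-implant replicates 6 to 10 they were 772, 694, 760, 778 and 765. Of the insulin-implant arrays, 4 of 5 lay above every normal array; the exception was replicate 7, which was below normal replicate 1. Means of 663 ± 46.3 and 754 ± 34.0 gave a log2 difference of 0.18 ± 0.06, or 1.13-fold. Normal replicate 4, the lowest array, carried part of this difference, which was 0.14 without it. It was 0.21 without replicate 7.

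**Figure D1:**
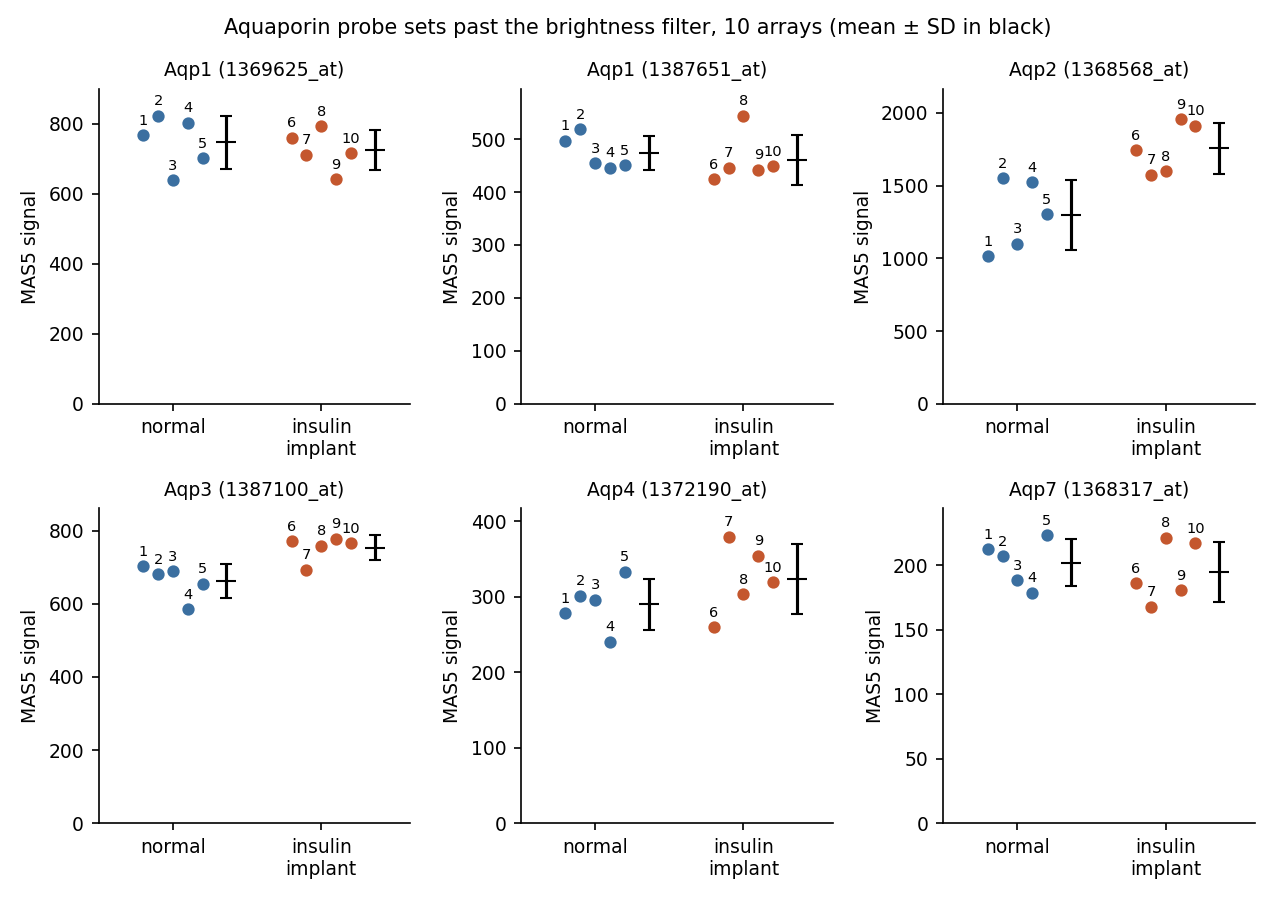
MAS5 signal (y axis, from 0) of each aquaporin probe set past the brightness filter on the 5 normal (blue) and 5 insulin-implant (orange) arrays; numbers are replicates, and black bars give the mean ± SD. Aqp2 is the one panel in which the groups do not overlap, with normal signals up to 1553 and insulin-implant signals from 1574.

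None of the 6 tested aquaporin probe sets passed limma's test with Benjamini-Hochberg adjustment over all 9601 tested probe sets, and the lowest adjusted p among them was 0.540. Of all tested probe sets, 1 passed, or 0.0104%. At an unadjusted limma p under 0.05 there were 2 aquaporin probe sets, those of Aqp2 and Aqp3, against 515 probe sets in all, or 5.36%. The groups did not overlap for 1 of the 6, Aqp2, against 100 of all tested probe sets, or 1.04%, 51 of them higher in the insulin-implant group, or 0.531%. An exact two-sided permutation test of each probe set gave 512 at an unadjusted p under 0.05, 2 of them aquaporins. Its smallest possible p with 5 against 5 arrays is 0.00794, which 100 of the 9601 probe sets reached, too few for any to pass after adjustment. Because the family was taken up for Aqp2 and Aqp3, nothing is read from the 2 aquaporins at an unadjusted p under 0.05 or from the non-overlap of Aqp2. Of the 6 tested probe sets, 3 were higher and 3 lower in the insulin-implant group, where 50.9% of all tested probe sets were higher, with a median log2 difference of 0.05, against a median of 0.00 over all tested probe sets.

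Aqp1, the channel of the proximal nephron, was measured by 2 probe sets, and both gave a log2 difference near 0. The first (1369625_at) read 767, 823, 639, 803 and 701 in the normal group and 760, 712, 793, 641 and 716 in the insulin-implant group. The ranges overlapped almost completely, and the log2 difference was -0.04 ± 0.08. The second (1387651_at) read 497, 519, 454, 446 and 451 in the normal group. In the insulin-implant group it read 424, 445.5, 544, 442 and 448. Replicate 8 was the highest of all 10 arrays while 3 insulin-implant arrays were below every normal one, and the log2 difference was -0.04 ± 0.07. Without replicate 8 it was -0.10. With group means removed, the probe sets of Aqp1 gave r = 0.512 (permutation p = 0.132, adjusted p = 0.555) and rho = 0.370 (permutation p = 0.311, adjusted p = 0.933) over the 10 arrays, and r = 0.547 without replicates 3 and 9, the farthest from the median.

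Aqp7, the glycerol channel of the late proximal tubule, showed no separation of the groups. Its signals were 213, 207, 188, 179 and 223 in the normal group and 186, 168, 221, 181 and 217 in the insulin-implant group. Both groups spanned nearly the same range, and the log2 difference was -0.05 ± 0.09.

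Aqp4, the other basolateral channel of the collecting duct, had 3 probe sets, of which 1 was past the filter. The tested one (1372190_at), which is annotated to an expressed sequence tag, read 278, 301, 296, 240 and 333 in the normal group. It read 260, 379, 303, 354 and 319 in the insulin-implant group. Replicates 7 and 9 were above all normal arrays and replicate 6 was below all but 1 of them; the means were 290 ± 34.1 and 323 ± 46.2 and the log2 difference was 0.15 ± 0.10. The other 2 probe sets, both annotated to the reference transcript, were below the filter on all arrays. Their signals ran from 34.3 to 69 (1368981_at) and from 27.4 to 55 (1387397_at), and their log2 differences were 0.03 ± 0.14 and -0.02 ± 0.16. The log2 difference of the tested probe set was 0.08 without normal replicate 4, 0.09 without insulin-implant replicate 7, 0.22 without insulin-implant replicate 6 and 0.34 with the mean of the liver genes as a covariate. With the settings reported, the unadjusted limma p of this probe set was 0.171. It was under 0.05 in the last 2 of these alternatives, and the probe set did not pass after adjustment.

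**Figure D2:**
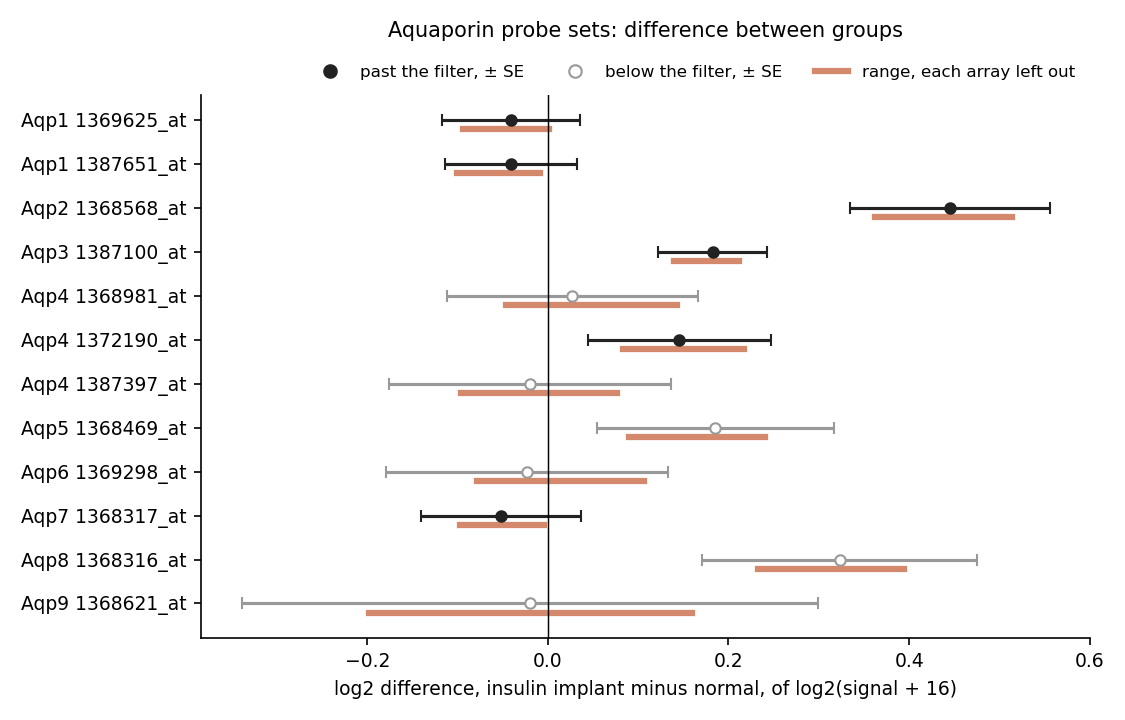
Log2 difference (x axis, insulin-implant minus normal) of all 12 aquaporin probe sets, with its standard error; filled points were past the brightness filter, open points below it, and orange bars give the range when each array was left out in turn. Aqp2 at 0.45 and Aqp3 at 0.18 stay above 0 throughout, and both Aqp1 probe sets sit at -0.04. The orange bars of the tested Aqp4 probe set and, below the filter, of Aqp5 and Aqp8 also stay above 0. The family was chosen for Aqp2 and Aqp3 in this contrast, so nothing is read from where these 2 stand.

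The remaining genes, Aqp5, Aqp6, Aqp8 and Aqp9, had signals below the filter on every array, and detection calls were not used here. Aqp8, a channel found in liver and gut epithelia, had a log2 difference of 0.32 ± 0.15. It read 59.9, 46.4, 53.1, 32.4 and 43.3 in the normal group and 57.2, 50, 70.2, 82.4 and 54.3 in the insulin-implant group. The groups overlapped, and 2 insulin-implant arrays, replicates 8 and 9, lay above every normal array. Aqp9, the glycerol and urea channel of hepatocytes, ran from 10.8 to 47.1 in the normal group and from 10.4 to 47.2 in the insulin-implant group, a log2 difference of -0.02 ± 0.32. Aqp6, the intercalated cell channel, ran from 31.5 to 49.5 and from 22 to 47, a log2 difference of -0.02 ± 0.16. Aqp5, a channel of secretory glands and lung, was at the bottom of the scale, at 2.1 or below on all arrays but insulin-implant replicates 8 and 10, where it read 7 and 9.3. Aqp5 and Aqp6, which follow Aqp2 on chromosome 7, thus gave too little signal for a comparison with it.

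**Figure D3:**
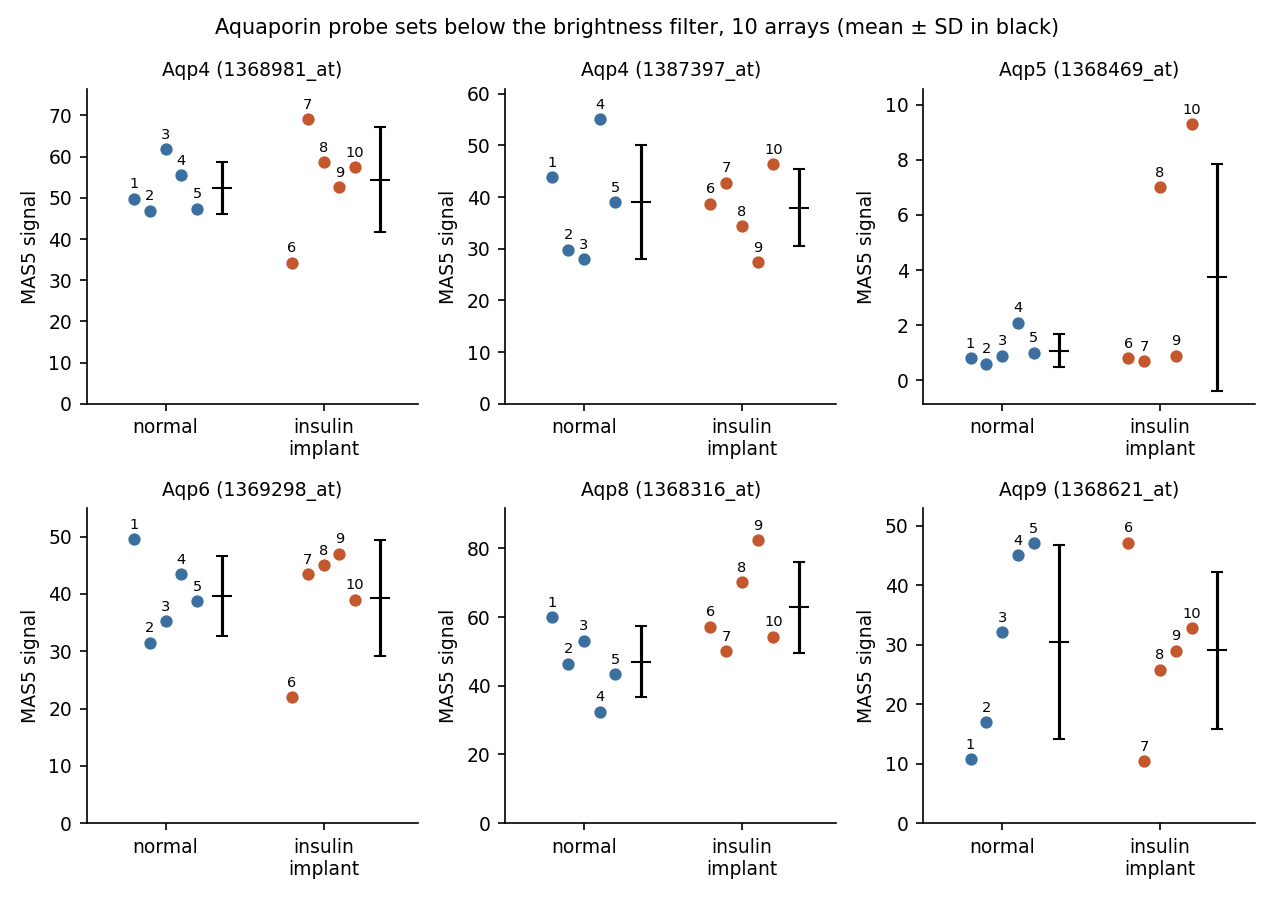
MAS5 signal (y axis) of the 6 aquaporin probe sets below the brightness filter, drawn as for the brighter probe sets; every value is under the lowest array's 40th percentile of 79.2 except Aqp8 in replicate 9, at 82.4. The groups overlap in all 6 panels.

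Liver transcripts are given beside Aqp8 and Aqp9, which hepatocytes carry. In a list of liver genes 9 of 10 tested members had a higher mean in the insulin-implant group, with a median log2 difference of 0.73. Among them 5 had an unadjusted limma p under 0.05 and 0 passed. Over all tested probe sets, 50.9% were higher and 5.36% had an unadjusted limma p under 0.05. The list was not tested as a set. Without insulin-implant replicate 6 the median of the list was 0.46. The summed signal of its 21 measured genes ran from 1867 to 3813 in the normal group and from 2312 to 8434 in the insulin-implant group, and none was at 0 throughout. Alb, the albumin gene, was highest in insulin-implant replicate 6, at 1742, and next in normal replicate 4, at 842. On these arrays Aqp8 read 57.2 and 32.4 and Aqp9 read 47.2 and 45.1; the part of liver transcripts in these values was not tested. Without both arrays the log2 difference was 0.51 for Aqp2 and 0.13 for Aqp3, and with the mean of the liver genes as a covariate it was 0.40 and 0.21.

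Differences between members within an array compare them almost free of the scaling of that array. Log2 Aqp2 minus log2 Aqp1 (1369625_at) had a mean of 0.77 ± 0.22 over the normal arrays and of 1.26 ± 0.23 over the insulin-implant arrays, with single arrays from 0.396 to 0.910 and from 0.997 to 1.59. Against the other Aqp1 probe set the means were 1.41 ± 0.28 and 1.89 ± 0.24, and the groups overlapped. Aqp2 minus Aqp3 was 0.94 ± 0.35 and 1.20 ± 0.11, with overlap. Aqp3 minus Aqp1 (1369625_at) was -0.16 ± 0.21 and 0.06 ± 0.13, also with overlap. The change between groups is what these differences measure, since their level depends on the probes. They hold the contrast for which the family was chosen and were not tested.

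With group means removed, which takes out that contrast, it was asked whether members vary together from array to array. Over 15 pairs of the 6 tested probe sets, Pearson's r ran from -0.536 to 0.559, and 0 pairs reached a permutation p under 0.05, adjusted or not. Aqp2 and Aqp3 gave r = -0.311 (permutation p = 0.545, adjusted p = 0.944) and Spearman's rho = -0.321 (permutation p = 0.444, adjusted p = 0.933) over 10 arrays; r was -0.299 without replicates 1 and 2, the arrays farthest from the median of Aqp2. Within the normal group the array with the least Aqp3, replicate 4, had the second highest Aqp2, and the array with the most Aqp3, replicate 1, had the lowest Aqp2. Within the insulin-implant group replicate 7 was lowest, and replicate 9 highest, for both genes. Each group alone has too few arrays for a correlation.

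**Figure D4:**
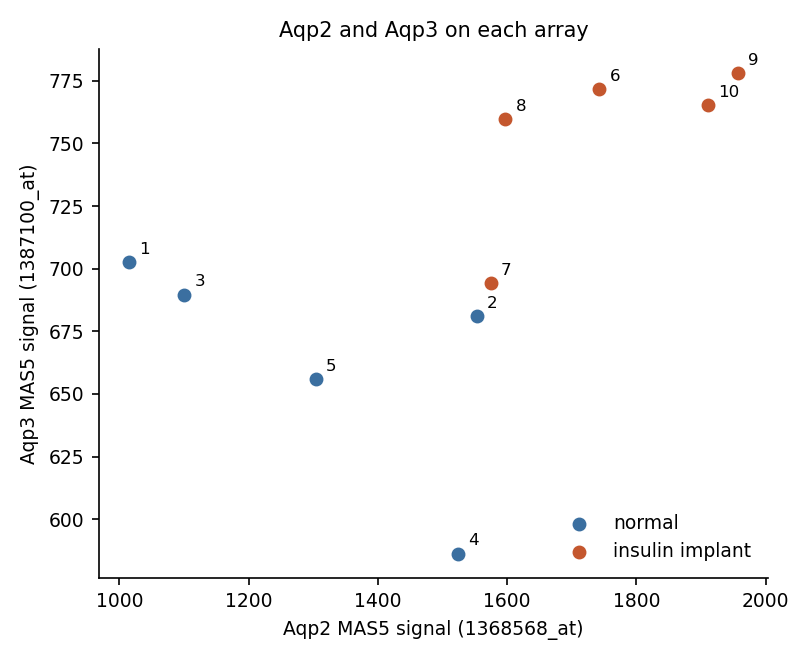
Aqp2 signal (x axis) against Aqp3 signal (y axis) on each array; blue, normal; orange, insulin-implant; numbers are replicates, and neither axis starts at 0. Replicates 6, 8, 9 and 10 lie above and to the right of all normal arrays, while insulin-implant replicate 7 (1574 and 694) lies beside normal replicate 2 (1553 and 681).

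The vasopressin and cAMP pathway upstream of Aqp2 had 20 tested genes of 29 measured, of which 14 were higher and 6 lower. Their median log2 difference was 0.02, 1 had an unadjusted limma p under 0.05 and 0 passed. Over all tested probe sets, 50.9% were higher and 5.36% had an unadjusted limma p under 0.05. Prkaca, the catalytic subunit of protein kinase A, differed most by p, at 301 ± 18.7 and 355 ± 56.7, a log2 difference of 0.22 ± 0.10. Its groups overlapped, with 3 insulin-implant arrays above all normal ones and 1 below them all. Gnas, the stimulatory G protein subunit, differed by 0.09 ± 0.06, the regulatory subunit gene Prkar1b by 0.09 ± 0.06 and the anchoring protein gene Akap13 by 0.07 ± 0.05. These genes and Prkaca had the smallest limma p of the list, and all were higher. Of the 6 lower members, Adcy4 differed by -0.08 ± 0.10, Pde4b by -0.06 ± 0.11 and Adcy5 by -0.04 ± 0.15. Avpr2, the vasopressin receptor itself, stood at 130 ± 28.3 and 130 ± 27.4, a log2 difference of -0.00 ± 0.14. That standard error is close in size to the log2 difference of Aqp3.

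Genes that move Aqp2 vesicles had 25 tested members of 27 measured, 8 higher and 17 lower, with a median of -0.03. Among them 1 had an unadjusted limma p under 0.05, against 5.36% of all tested probe sets, and 0 passed. Vamp2, the vesicle SNARE of Aqp2 vesicles, stood at 219 ± 33.1 and 265 ± 32.4, a log2 difference of 0.26 ± 0.11. In replicate 6 it read 208, against 274 to 285 on the other insulin-implant arrays, which were all above every normal array. Vamp8, another vesicle SNARE, differed by -0.14 ± 0.10, the caveolin gene Cav1 by -0.17 ± 0.11 and the myosin gene Myo1c by -0.06 ± 0.06.

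Other genes of the collecting duct, whose principal cells make Aqp2 and Aqp3, were divided in direction. Of 22 tested collecting duct and ureteric bud genes among 25 measured, 10 were higher and 12 lower. Their median log2 difference was -0.02, with a range from -0.33 to 0.14. Of these genes 0 had an unadjusted limma p under 0.05, and 0 passed. The epithelial sodium channel gene Scnn1b stood at 333 ± 13.7 and 302 ± 26.4, a log2 difference of -0.14 ± 0.07. The keratin gene Krt7 differed by -0.15 ± 0.07, the sialyltransferase gene St6gal1 by -0.13 ± 0.06 and Hsd11b2, which shields the mineralocorticoid receptor from glucocorticoids, by -0.15 ± 0.09. These genes and Scnn1b had the smallest limma p of the list, and all were lower. The sodium channel genes Scnn1a and Scnn1g differed by 0.02 ± 0.09 and 0.04 ± 0.07. The keratin genes Krt8, Krt18 and Krt19 differed by 0.00 ± 0.08, -0.07 ± 0.09 and 0.04 ± 0.11, and Hoxb7 by 0.14 ± 0.11. Summed over the measured genes of the list, signals ran from 9469 to 10259 in the normal group and from 9084 to 10087 in the insulin-implant group, with none at 0 throughout. Relative to the mean log2 signal of the tested genes of the list on the same array, Aqp2 stood at 1.87 ± 0.24 and 2.35 ± 0.11 and Aqp3 at 0.94 ± 0.13 and 1.15 ± 0.03. On this measure the groups did not overlap for Aqp2 or for Aqp3, against 102 of all 9601 tested probe sets, or 1.06%. Aqp2 and Aqp3 were not members of the list; this measure holds the contrast for which they were chosen, so it was not tested and nothing is read from that count.

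Neighbouring lists gave the setting for the other channels. Of 24 tested proximal tubule genes among 25 measured, from the cells of Aqp1 and Aqp7, 21 were lower and 3 higher, with a median of -0.09. Among them 5 had an unadjusted limma p under 0.05 and 0 passed. Over all tested probe sets, 50.9% were higher, 5.36% had an unadjusted limma p under 0.05 and 1.04% had groups without overlap. The list was not tested as a set. The organic cation transporter gene Slc22a2 stood at 130 ± 4.86 and 94.4 ± 17.3 with no overlap, a log2 difference of -0.42 ± 0.10. The glucose transporter genes Slc5a2 and Slc2a2 differed by -0.29 ± 0.10 and -0.16 ± 0.06, and the fatty acid transporter gene Slc27a2 by -0.18 ± 0.08. Both Aqp1 values, at -0.04, and that of Aqp7, at -0.05, were closer to 0 than this median. Endothelial genes, from another site of Aqp1, had 12 tested members of 14 measured, 3 higher and 9 lower, with a median of -0.02. Those with the smallest limma p were all lower: Icam2 (-0.17 ± 0.09), Flt1 (-0.13 ± 0.09), Ptprb (-0.09 ± 0.08) and Pecam1 (-0.08 ± 0.11). The 3 higher members were Eng (0.04 ± 0.07), Cldn5 (0.04 ± 0.06) and Tie1 (0.01 ± 0.08). Erythroid genes, from red cells that also carry Aqp1, had 4 tested members of 13 measured, all with higher means and a median of 0.14: Alas2 (0.30 ± 0.17), Hbb (0.16 ± 0.08), Tfrc (0.11 ± 0.07) and Gypc (0.09 ± 0.10). Summed erythroid signals ran from 6381 to 7896 and from 7427 to 9594, and their part in the Aqp1 values was not tested.

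Intercalated cell genes, from the site of Aqp6, had 5 tested members of 7 measured, 1 higher and 4 lower, with a median of -0.05; Atp6v1c2 differed by -0.17 ± 0.13, Kit by -0.07 ± 0.08, the anion exchanger gene Slc4a1 by 0.07 ± 0.10 and the ammonia transporter gene Rhcg by -0.05 ± 0.10. Genes of the osmotic response had 5 tested members of 6 measured, all 5 with a mean above 0 on the log2 difference scale and a median of 0.03. Nfat5, the transcription factor that responds to high tonicity, stood at 903 ± 19.8 and 925 ± 113, a log2 difference of 0.03 ± 0.07; the taurine transporter gene Slc6a6 differed by 0.13 ± 0.12, Slc38a2 by 0.06 ± 0.08 and aldose reductase Akr1b1 by 0.03 ± 0.06. Genes of aldosterone-sensitive sodium transport had 10 tested members, 4 higher and 6 lower, with a median of -0.01; Usp2 differed by -0.17 ± 0.08, the mineralocorticoid receptor gene Nr3c2 by -0.12 ± 0.09, Per1 by 0.14 ± 0.10 and the sodium pump subunit gene Atp1b1 by 0.09 ± 0.05. In these lists 0 genes had an unadjusted limma p under 0.05, and 0 passed. Over all tested probe sets, 50.9% were higher. Of the adipose list, which was kept for Aqp7, 1 of 8 measured genes was tested, Lpl at -0.09 ± 0.10; of the urothelium list, kept for Aqp3, 0 of 4 measured genes reached the filter, with summed signals of 122 to 197 and 94.9 to 147.

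**Figure D5:**
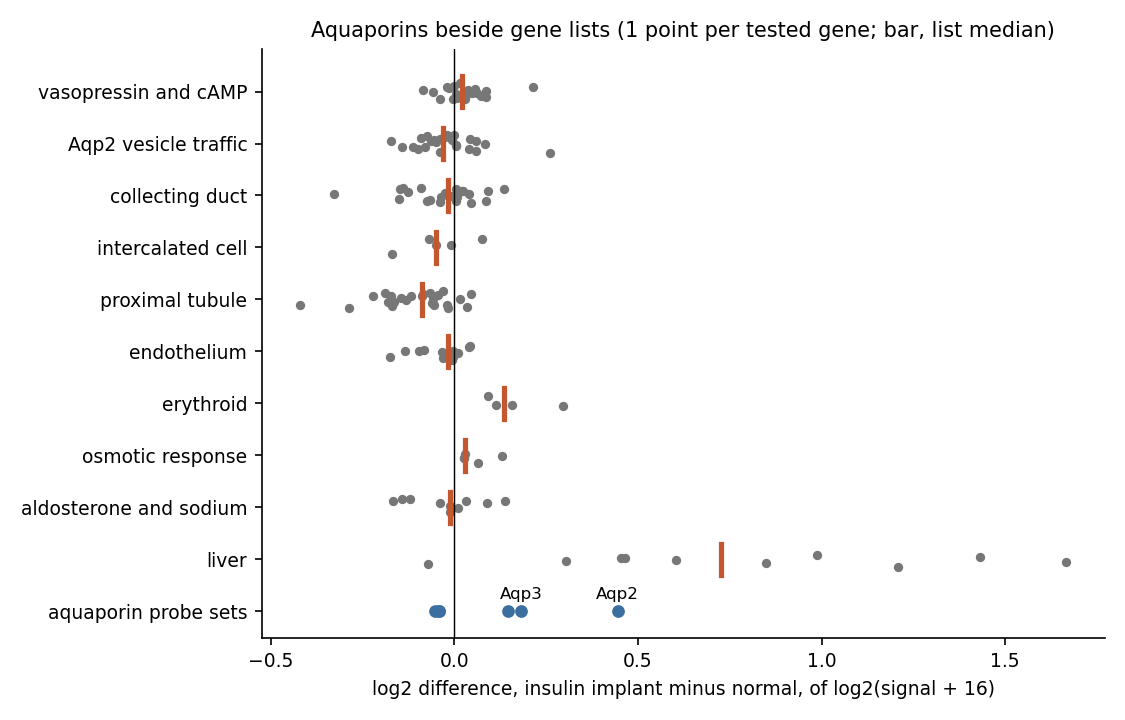
Log2 difference (x axis, insulin-implant minus normal) of every tested gene of each list (grey points, 1 per gene) with the list median (orange bar), and of the 6 tested aquaporin probe sets (blue). The collecting duct points lie between -0.33 and 0.14, Aqp2 and Aqp3 stand at 0.45 and 0.18, and liver genes reach 1.67. The family was chosen for Aqp2 and Aqp3 in this contrast, so nothing is read from where they stand.

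The genes whose signals followed each channel most closely from array to array were sought among 7262 tested genes outside the family, by Pearson's r over the 10 arrays with group means removed. With so many genes and 10 arrays, high values arise by selection, and they are given as a description. For Aqp2 they were Gja5, the gap junction gene of a connexin (r = 0.959), Ltbp4, which encodes a latent TGF-beta binding protein (0.952), and C2h1orf52 (0.926). For Aqp3 they were Gtdc1 (0.897), Slc22a24 (0.886) and Arpc5l, an actin-nucleating complex subunit gene (0.884). For Aqp1 (1369625_at) they were the cytochrome gene Cyp2e1 (0.930), the fatty acid racemase gene Amacr (0.925) and the heparan sulfate enzyme gene Ndst1 (0.908). For Aqp4 (1372190_at) they were Msantd4 (0.956), Plpp3 (0.953) and the heat shock gene Hspa1a (0.916), and for Aqp7 the aminoacylase gene Acy1 (0.918), Uqcc3 (0.910) and the thyroid hormone receptor gene Thra (0.850). Between the groups, whose means this measure does not use, Gja5, Ltbp4 and C2h1orf52 differed by 0.04 ± 0.09, -0.01 ± 0.06 and 0.22 ± 0.21. Gtdc1, Slc22a24 and Arpc5l differed by -0.08 ± 0.07, -0.26 ± 0.08 and 0.07 ± 0.06. Cyp2e1, Amacr and Ndst1 differed by 0.46 ± 0.12, -0.20 ± 0.07 and 0.05 ± 0.15. The values were -0.12 ± 0.09 for Msantd4, -0.03 ± 0.08 for Plpp3 and 0.00 ± 0.16 for Hspa1a. They were -0.02 ± 0.05 for Acy1, 0.03 ± 0.08 for Uqcc3 and -0.14 ± 0.08 for Thra.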

How the data were processed

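Total RNA from 10 fetal kidney samples was hybridised to 1-colour Affymetrix arrays. The deposited values were linear intensities, made by the authors with MAS5 per the submitters' processing notes; the MAS5 release and options are not given in the sources used here. Signals were used as deposited. GEO's platform annotation gave 1 symbol for 12789 of 15923 probe sets, several for 312 and none for 2822; list genes were also matched through Entrez identifiers to GRCr8 symbols. The 57 control probe sets were left out. After log2(signal + 16), 9601 probe sets entered a two-sided linear model in limma 3.58.1 (R 4.3.3), with eBayes moderation that follows an intensity trend and a threshold of 0.05 on the adjusted p. Below the filter, group means were compared and the standard error came from the pooled SD. A gene in a list was read by its brightest tested probe set. The code was tested on simulated data. Correlations used 100000 permutations within groups, and figures Python 3.11.15.

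Named were all aquaporin probe sets, up to 4 members of each of 12 lists by smallest p, further members of some lists, Avpr2, Nfat5, Xist, Alb and the 3 genes likest to each channel. The members and lists were chosen with earlier results of these data known. Permutation p-values for correlations were added after the data were seen. Alternatives were other pseudocounts, normalizations, filters, variance models, array weights, a liver covariate and leaving out arrays. The number of arrays limits the precision.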

Additional observations from a re-analysis of the deposited data

Results flagged for a closer look

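Within groups of 5 arrays, single values far from the others by Dixon's criterion were found in 6 of 36 groups examined. The nominal rate of about 1 in 20 holds for normally distributed values. The share over all probe sets is not given here, so no excess is read from this count. Aqp3 was low in insulin-implant replicate 7, at 694 against 760 to 778 on the other 4 arrays. The second Aqp1 probe set was high in insulin-implant replicate 8, at 544 against 424 to 448. Aqp5 read 2.1 in normal replicate 4 against 0.6 to 1, all at the bottom of the scale. Vamp2 was low in insulin-implant replicate 6, at 208 against 274 to 285. Alb was high in normal replicate 4, at 842 against 42.9 to 66.9, and in insulin-implant replicate 6, at 1742 against 84.9 to 436.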

How the results depend on the processing

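The log2 difference of Aqp2 ran from 0.36 to 0.51 and that of Aqp3 from 0.13 to 0.21 over 20 alternatives each, of which the filters and the variance trend leave a difference unchanged by construction. No aquaporin probe set was called under any of these 20, and 2 or 3 had an unadjusted limma p under 0.05. The exact permutation test gave no call, because too few probe sets reached its smallest possible p. The count over all probe sets, 1 with the settings reported, ran from 0 (no intensity trend, liver covariate, or without the 2 arrays with the most Alb) to 5 (no filter), and from 0 to 4 when each array was left out. With the liver covariate the tested Aqp4 probe set stood at 0.34, and with a pseudocount of 1 Aqp5 stood at 0.76; the cause was not tested. The median of the vesicle traffic list was -0.00426 to -0.0320 when each array was left out, lowest in size without normal replicate 2, and -0.00579 without the 2 arrays with the most Alb, an omission chosen after the data were seen. The log2 difference of Aqp1 (1369625_at) changed sign in 1 of 20 alternatives. List medians near 0 changed sign in 1 of 14 alternatives for the vasopressin and collecting duct lists and in 5 of 14 for the aldosterone list. Below the filter, where array weights and the liver covariate were not run, signs changed in 4 of 16 for Aqp6 and Aqp9, in 5 of 16 for Aqp4 (1387397_at) and in 2 of 16 for Aqp4 (1368981_at). No paired analysis was possible because the groups share no replicate number. Signal near background limits Aqp5, Aqp6, Aqp8 and Aqp9.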
